A study of Phoxinus septimaniae with 18 samples.

Results

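The 200 genes described here are the most abundant brain-enriched genes without a transmembrane tag in the transcriptome of an invasive minnow, Phoxinus septimaniae x P. dragarum. They were selected on measured levels. Counts of assembled transcripts were summed per assembled gene and divided by the library total to give CPM, a level relative to all counts of the library. A gene was kept if a brain transcript listed a protein with the source code DANRE as its first hit and no transcript carried a transmembrane tag. Its brain mean also had to be at least 20 times its mean in gills and in liver, where a gene missing from a table counted as 0. Of 27606 assembled genes in the brain table, and 36271 in any of the 3 tables, 1448 met these conditions, and the 200 with the highest brain mean CPM were taken. The brain, gill and liver levels therefore chose the members, and they are given below as a description. The difference between river stations was not used in the choice.

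The fish were caught at 2 stations of the Llobregat River in Spain, a salt station near a potash mine at 18.1 ppt and an upstream reference station of lower salinity. Each tissue had 3 salt and 3 reference libraries, 18 in all. The series text speaks of 6 fish, but the library codes name 9, of which 3 have a gill library only. Salinity is not separated from other differences between the stations. The labels give no age, sex or reproductive state, and all fish carry the same hybrid name.

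Soluble proteins of the nerve cell act in transmitter release, calcium signalling, energy supply and the cytoskeleton. Secreted proteins of the brain and the attached pituitary include neuropeptides, hormones and carrier proteins of the brain fluid. Some genes for such proteins, though not all, are known for strong expression in neural tissue and little elsewhere. Which of these roles the members have could not be read from the files: the identifiers pair each gene with a protein accession and no gene symbol. Members are therefore named by their assembled gene (DN number) and their first DANRE accession, with no role given. The label of this set also speaks of secretion. The identifiers carry a tag, sigP, which stood on 92.2% of the 901 member transcripts with a hit and on 89.0% of all 37039 brain transcripts with a hit. By gene, 96% of members had it on at least 1 transcript. So did 86.2% of the 9013 brain genes with a DANRE first hit and no transmembrane tag. A tag so common does not tell secreted members from others. The absence of a transmembrane tag is a condition of the rule.

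Library totals ran from 23678725 to 28731252 counts in brain, 15200774 to 24222245 in gills and 22183499 to 39881549 in liver. One gill library went against its label. Shares of transcripts within genes were compared between gill and brain libraries over 20205 transcripts of 5397 genes. The gill library labelled salt 3 gave r = -0.06 with the brain of its own fish code (salt 1) and 0.62 with the brain of reference 1. Gill reference 1 gave 0.61 with that same brain, and gill salt 1 gave 0.67 with the brain of its code (salt 3). Transcripts of a gene are not independent points in these correlations. The edgeR fits in gills below are given with and without the library labelled salt 3. Other gill values include it unless stated otherwise, and DESeq2 was not run in gills without it. In bulk tissue, fewer cells of a type and less RNA per cell cannot be told apart.

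The members took between 10.5% and 12.4% of all counts in each brain library. Brain mean CPM ran from 105 to 39411 with a median of 197. There were 15 members at or above 1000 CPM, 84 between 200 and 1000 CPM and 101 below 200 CPM. CPM is not scaled by transcript length, which the files do not give, so this order is an order of reads and not of molecules. In gills 158 members were listed, with means from 0.382 to 167 CPM and a median of 3.76 CPM. In liver only 61 were listed, from 0.482 to 89.1 CPM with a median of 1.73 CPM. A total of 39 members were listed in neither table. The tables list a transcript only where at least 2 of 6 libraries reached 1 CPM, so an unlisted gene lay under that limit per transcript and is not shown to be absent. Among the listed members the brain mean exceeded the gill mean by a median of 58.6 times and the liver mean by a median of 186 times.

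**Figure D1:**
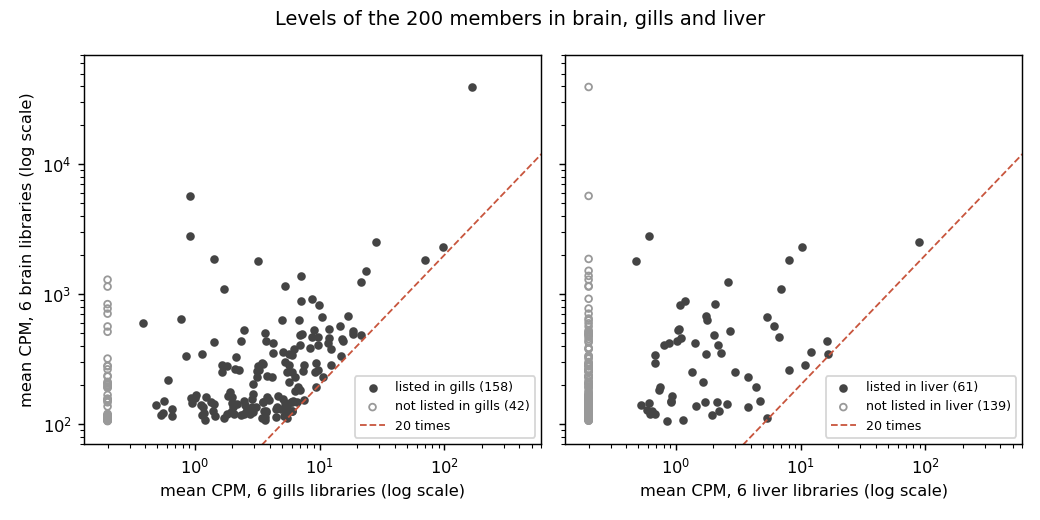
Mean CPM of each member over 6 brain libraries (vertical, log scale) against its mean over 6 gill (left) or 6 liver libraries (right, log scale). Open points at the left edge are the 42 members not listed in gills and the 139 not listed in liver, and the dashed line marks the 20-fold limit of the rule.

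The limits of the rule cut through a continuous range. DN6509_c1_g1 (ENSDARP00000107760) and DN49584_c0_g1 (ENSDARP00000050550) were the last inside, at 106 and 105 CPM. DN195_c0_g1 (ENSDARP00000080844) and DN4420_c2_g2 (ENSDARP00000091982) were the next outside, at 104.5 and 104.3 CPM. On the fold limit, DN3734_c0_g1 (ENSDARP00000099527) and DN8122_c1_g1 (ENSDARP00000105393) were inside at 20.37 and 20.40 times the higher of gills and liver. DN785_c0_g1 (ENSDARP00000107260) and DN15477_c0_g1 (ENSDARP00000104632) were outside at 19.84 and 19.82 times.

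DN6508_c0_g1 (ENSDARP00000111439) alone took 3.94% of all brain counts. It stood at 41149, 44730 and 31282 CPM in reference brains 1, 2 and 3 and at 34975, 45260 and 39071 CPM in salt brains 1, 2 and 3. The stations overlapped, and reference 3 was lowest. Its count came from 3 transcripts that list 3 different DANRE accessions first, with 45.2% to 60.2% of the count on the largest of them in each brain library. In gills it stood at 53.4, 151 and 150 CPM in reference libraries 1, 2 and 3 and at 167, 422 and 60.1 CPM in those labelled salt 1, 2 and 3. The low values of 53.4 and 60.1 CPM belong to the gill libraries whose transcript shares follow brain reference 1. It was not listed in liver.

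Some other abundant members were steady between brains as well. DN2344_c0_g1 (ENSDARP00000075079) stood at 2639, 3256 and 2402 CPM in reference and 3233, 2760 and 2587 CPM in salt brains. Outside brain it was close to nothing, with 0 in 4 of 6 gill libraries and at most 2.93 CPM in the others. DN1008_c0_g1 (ENSDARP00000129417) stood at 1898, 2081 and 1538 CPM in reference and 2088, 1840 and 1764 CPM in salt brains, with a gill mean of 1.42 CPM and no listing in liver. For both genes the stations overlapped.

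A pair of members ran in parallel across tissues and was also found outside brain. DN3982_c0_g4 (ENSDARP00000047661) stood at 2234, 2307 and 2534 CPM in reference brains and 2361, 2326 and 2183 CPM in salt brains. DN11448_c0_g1 (ENSDARP00000024900) stood at 1775, 1758 and 2064 CPM and at 1851, 1785 and 1786 CPM. Each has 1 transcript, and in each reference 3 was the highest brain. That brain was also highest in 78 of the 200 members and in 661 of 2041 brain genes as abundant. In gills the first had its highest value, 149 CPM, in reference 2 and a lowest of 64.4 CPM in reference 3. The second likewise ran highest in reference 2 (96.2 CPM), and its lowest values were 54.3 CPM in the library labelled salt 3 and 55.3 CPM in reference 3. In liver the first stood at 1.34, 38.8 and 15.4 CPM in reference libraries and 2.23, 2.34 and 1.13 CPM in salt libraries. The second stood at 1.2, 30.1 and 11.6 CPM and at 2.46, 1.89 and 0.719 CPM. Reference livers 2 and 3 were high for both genes and the other 4 livers low. Of the 61 members listed in liver, 23 were highest in reference 2 and 23 in reference 3 on library totals. With library sizes scaled by the trimmed mean of M values, 18 were highest in reference 2, 11 in reference 3 and 13 in reference 1. In gills 21 of the 158 listed members were highest in reference 2 on library totals. A peak in these libraries is therefore not particular to the pair, though in liver it was less common after scaling. What the pair shares in function is not given by the files.

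DN1289_c0_g2 (ENSDARP00000090943) had the highest liver level of the set. It stood at 2682, 2394 and 1915 CPM in reference and 2264, 3439 and 2318 CPM in salt brains. In liver it stood at 73.6, 70.1 and 339 CPM in reference and 3.66, 29.4 and 19.3 CPM in salt libraries. These liver values did not overlap between stations, and a single library, reference 3, was far above the rest. Next in liver came DN3392_c0_g2 (ENSDARP00000105268), with 25.9, 32.0 and 10.8 CPM in reference and 4.99, 14.2 and 12.4 CPM in salt livers, which overlapped.

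Over all members, traces in gills and liver differed between libraries far more than levels in brain. The summed share ran from 0.0788% to 0.191% of counts in gills, lowest in the library labelled salt 3 and highest in salt 2. Of the 158 members listed in gills, 81 had their highest CPM in salt 2, and 71 did so with library sizes scaled by the trimmed mean of M values (TMM). The same share over all gill genes was not computed, so these counts do not set the members apart from other genes of that library. In liver the summed share was 0.0253%, 0.0422% and 0.0625% in reference libraries and 0.0107%, 0.0120% and 0.0137% in salt libraries, without overlap.

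**Figure D2:**
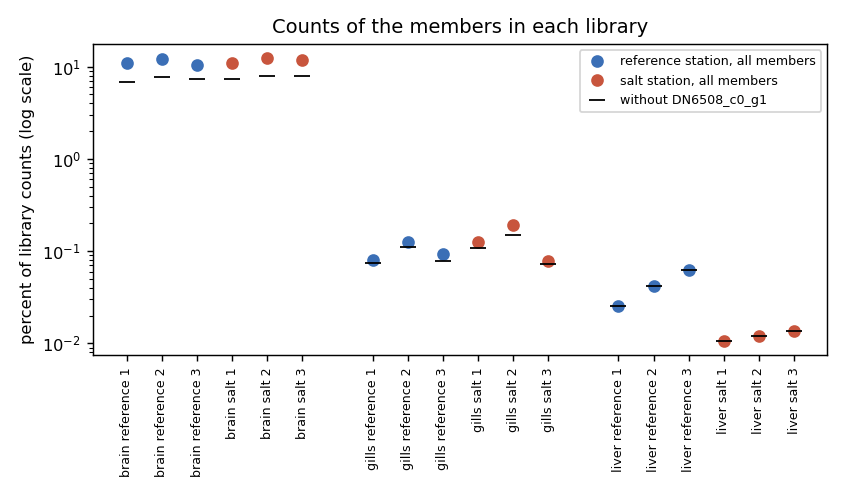
Percent of each library's counts taken by the members (points, log scale; blue reference, red salt) and by the members other than DN6508_c0_g1 (black dashes), with 1 position per library. Brain libraries lie between 10.5% and 12.4%, gill libraries between 0.0788% and 0.191%, and salt livers below all reference livers.

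The liver libraries also differed in makeup. A single hit, ENSDARP00000050237, which is no member, took 40.9%, 42.6% and 33.2% of counts in salt livers and 28.9% in reference liver 1. In reference livers 2 and 3 it took 0.000151% and 0.000164%. With TMM scaling the summed level of members was 246, 308 and 357 CPM in reference and 137, 177 and 180 CPM in salt livers. The stations still did not overlap, and the part of that hit in this difference was not tested.

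Levels within brain were close between fish for most members. The coefficient of variation over the 6 brain libraries had a median of 14.6% among members and 13.1% among the 2041 brain genes with a mean at or above that of the lowest member. It was under 15% for 102 members (51%, against 58.8% of those 2041 genes) and over 50% for 9 members (4.5%, against 3.87%). The biological coefficient of variation estimated by edgeR had a median of 0.193 for members, 0.184 for the tested genes of that abundance and 0.383 for all tested brain genes. The steadiest members were DN2976_c1_g1 (ENSDARP00000096392), at 1333 to 1435 CPM, and DN5408_c0_g1 (ENSDARP00000114416), at 191 to 210 CPM. Their coefficients of variation were 2.79% and 3.61%.

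**Figure D3:**
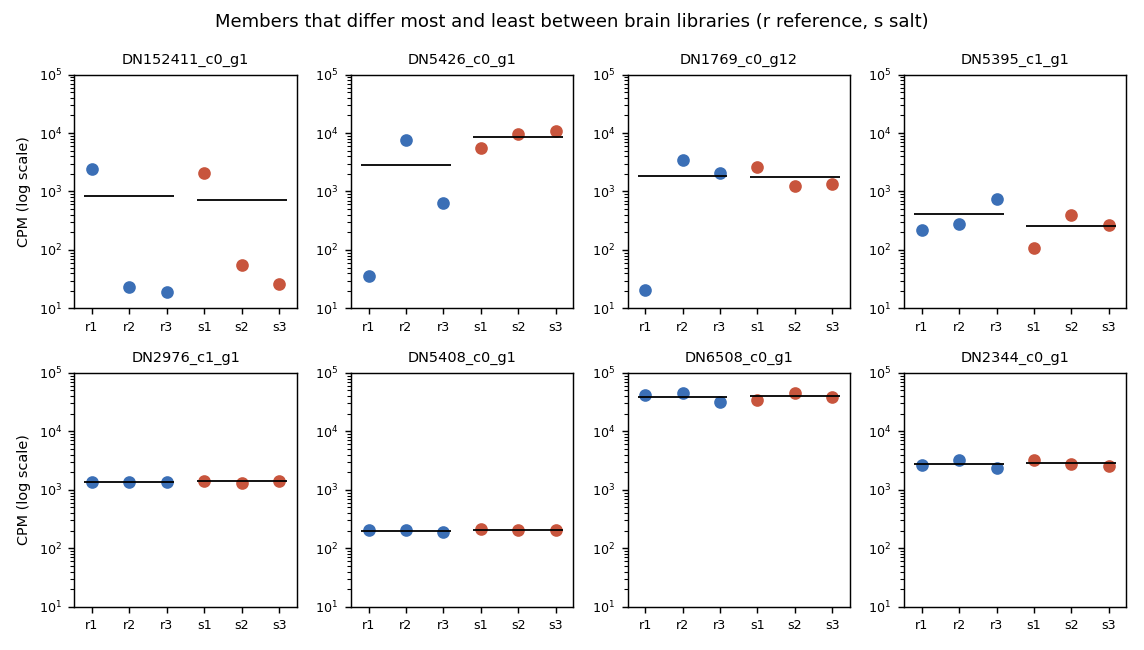
CPM by brain library (log scale, same range in every panel; r1 to r3 reference, blue; s1 to s3 salt, red; lines are station means of 3 libraries). The upper row holds the 4 members that differ most between libraries, and the lower row the 2 that differ least with 2 of the most abundant members.

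A few members differed between single fish by far more than stations did. DN152411_c0_g1 (ENSDARP00000049894) had the largest coefficient of variation, 150%. It stood at 2449, 23.4 and 18.8 CPM in reference brains and at 2076, 55.3 and 26.3 CPM in salt brains. One fish of each station was high and the other 4 were low, and the gene was listed in neither gills nor liver. DN5426_c0_g1 (ENSDARP00000072616) stood at 36.6, 7715 and 648 CPM in reference brains and at 5440, 9446 and 10971 CPM in salt brains. Reference 1 was lowest, reference 3 the next lowest, and the stations overlapped through reference 2. Its brain mean of 5709 CPM is therefore no typical value for a fish. DN1769_c0_g12 (ENSDARP00000102334) stood at 20.5, 3479 and 2078 CPM in reference and at 2622, 1263 and 1327 CPM in salt brains. Reference 1 alone was low, and the other 5 brains were within 1263 to 3479 CPM.

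Other brain genes followed these patterns, named here after their values were seen. They were taken from 330 genes with a brain mean of at least 10 CPM and at least a 10-fold range between libraries (after adding 1 CPM), by Pearson's r of log2(CPM + 1) over the 6 brain libraries. Closest to DN5426_c0_g1 were DN4522_c0_g1 (ENSDARP00000006800), DN3845_c0_g1 (ENSDARP00000109347) and DN8910_c0_g1 (ENSDARP00000027550), with r of 0.995, 0.993 and 0.984. DN4522_c0_g1 stood at 37.7, 682 and 211 CPM in reference and 798, 1029 and 917 CPM in salt brains. These 3 genes are no members, since their gill means of 366, 104 and 64.4 CPM break the 20-fold limit. Closest to DN1769_c0_g12 were DN19311_c0_g2 (r = 0.999), DN2934_c0_g3 (r = 0.994) and DN7991_c0_g1 (r = 0.987). DN7991_c0_g1 (ENSDARP00000054459) stood at 43.1, 2547 and 951 CPM in reference and 2025, 847 and 785 CPM in salt brains, again low in reference 1. In all, 12 of the 330 genes had r over 0.95 with DN5426_c0_g1, 11 with DN1769_c0_g12 and 2 with DN152411_c0_g1. All points share the same 6 libraries, so these values describe a likeness in these fish.

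The station difference was tested in brain with edgeR's quasi-likelihood test over 26930 genes, with p-values adjusted over all of them by the Benjamini-Hochberg method. All 200 members passed the filter on low counts. edgeR called 0 members at an adjusted p under 0.05, against 0% of all genes, and the smallest adjusted p of a member was 0.494. At an unadjusted p under 0.05 there were 21 members (10.5%), 8 higher and 13 lower at the salt station. The background was 6.41% of all tested genes and 9.17% of the 2039 tested genes as abundant as the members, so the members' share lay close to that of other abundant genes. DESeq2 called 5 members (2.5%), 1 higher and 4 lower, against 1.31% of all genes and 2.11% of those as abundant. limma-voom called 0.

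The typical difference was small. The median absolute log2 fold change was 0.18 for members, 0.14 for tested genes as abundant and 0.27 for all tested brain genes. The median signed value of the members was 0.00. In 19 members every salt brain exceeded every reference brain, and in 21 every salt brain was lower, 9.5% and 10.5%. Over all tested genes these shares were 6.82% and 6.01%, and over those as abundant 8.68% and 5.79%. The summed level was 11.2 ± 0.811% of counts in reference and 11.7 ± 0.747% in salt brains (SD, n = 3), a difference smaller than the spread.

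DN3226_c1_g1 (ENSDARP00000118751) had the smallest p of the members that were lower at the salt station. It stood at 605, 500 and 932 CPM in reference brains and at 296, 324 and 238 CPM in salt brains, without overlap. The means were 679 ± 225 and 286 ± 43.7 CPM (SD, n = 3). On the log2 scale it fell by 1.24 by DESeq2 (adjusted p = 0.000284), and edgeR gave -1.24 with SE 0.24 (adjusted p = 0.494). DESeq2 called it also without each of the 6 libraries in turn. In gills, where it averaged 21.6 CPM, it stood at 24.9, 17.4 and 26.4 CPM in reference libraries and 17.5, 19.4 and 23.7 CPM in those labelled salt, and the groups overlapped with or without the library labelled salt 3.

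DN5937_c0_g1 (ENSDARP00000080008) stood at 174, 140 and 173 CPM in reference and 127, 110 and 112 CPM in salt brains. The stations did not overlap, although the gap was small beside that of DN3226_c1_g1. Its log2 fold change was -0.49 (SE 0.10; edgeR adjusted p = 0.517, DESeq2 adjusted p = 0.00207), and DESeq2 called it in all 6 fits that left out a library.

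The other members called by DESeq2 depended on which libraries were kept. DN822_c4_g2 (ENSDARP00000106790) stood at 669, 428 and 1021 CPM in reference and 282, 353 and 327 CPM in salt brains, with a DESeq2 adjusted p of 0.0190. Among reference fish, reference 3 was highest and reference 2 lowest, as in DN3226_c1_g1 above and DN4339_c1_g1 below. How many other genes had this order among reference fish was not counted. Over all 6 brains, reference 3 was highest in 661 and reference 2 lowest in 561 of 2041 brain genes as abundant. Each was more than any other brain. Among the members, reference 3 was most often highest (78) but also most often lowest (49), and reference 2 was lowest in 26. These are separate counts on library totals, so they do not show whether the order is particular to these genes. In DN822_c4_g2, DN3226_c1_g1 and DN4339_c1_g1 a salt brain was the lowest of all 6. DN4339_c1_g1 (ENSDARP00000124286) stood at 181, 158 and 210 CPM in reference and 126, 108 and 138 CPM in salt brains, with a DESeq2 adjusted p of 0.0145. DN194_c0_g1 (ENSDARP00000121156) was the member that DESeq2 called higher, at 135, 166 and 101 CPM in reference and 212, 470 and 427 CPM in salt brains. Its log2 fold change was 1.45 (SE 0.37; edgeR adjusted p = 0.648, DESeq2 adjusted p = 0.00996). Each of these 3 was called in 2 of the 6 fits that left out a library. Their highest DESeq2 adjusted p in those fits was 0.125, 0.116 and 0.140. Next among higher members by p was DN9250_c0_g1 (ENSDARP00000092693), at 98.0, 70.5 and 75.3 CPM in reference and 108, 198 and 132 CPM in salt brains. With all libraries it was called by neither tool (edgeR adjusted p = 0.734, DESeq2 adjusted p = 0.143). DESeq2 called it without salt 1 (adjusted p = 0.00720) and in none of the other 5 such fits, where its adjusted p ran from 0.115 to 0.546.

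**Figure D4:**
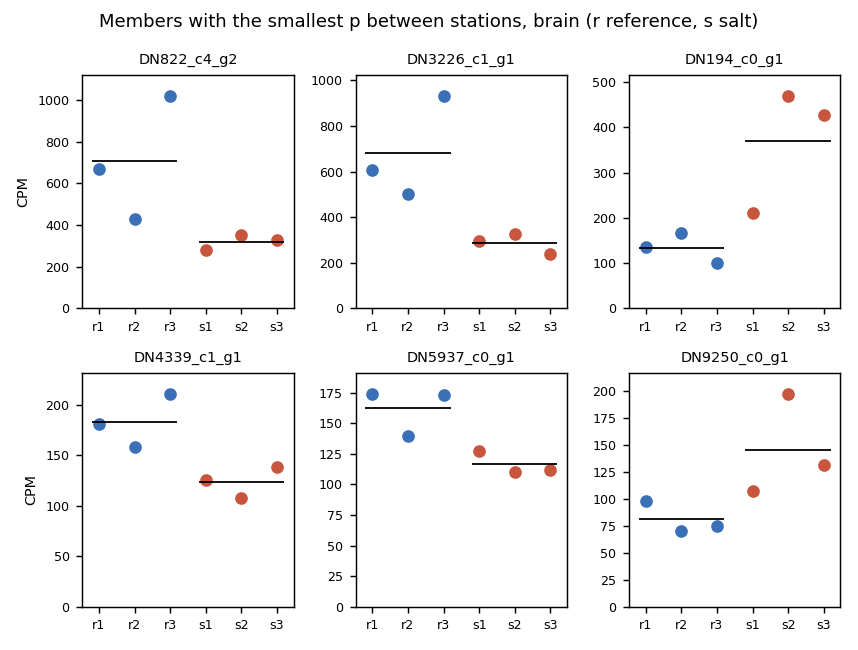
CPM in each brain library (linear axis from 0; r1 to r3 reference, blue; s1 to s3 salt, red; lines are station means of 3 libraries) for the 5 members called by DESeq2 and for DN9250_c0_g1. The stations do not overlap in any of the 6 panels; in DN822_c4_g2 and DN3226_c1_g1 the reference brains differ most among themselves.

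The DESeq2 counts turned on single libraries. Without reference 2 DESeq2 called 22 members, 12 higher and 10 lower, the 5 above among them. These were 11% of members, against 3.93% of all genes. Without reference 1, reference 3 or salt 3 it called 3 members each (1.5%), against 1.79%, 1.03% and 1.12% of all genes. Without salt 1 it called 8 (4%, against 2.72% of all genes). The share among genes as abundant as the members was not computed for these fits. With all libraries it was 2.11%, above the 1.31% of all genes.

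Below the level of genes, brains differed in which transcript they used. The members held 968 transcripts, from 1 to 16 per gene with a median of 5, and 171 members had several. The most counted transcript was not the same one in all 6 brains in 88 of these 171. In 52 of the 171 the share of at least 1 transcript differed by 50 percentage points or more between brains. The same counts over other brain genes were not computed, so they do not set the members apart. A transcript here is a sequence built by the assembler, which may be an allele, a splice form or a fragment, and reads shared between them can be split by the counting.

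DN2344_c0_g1, steady as a gene, showed this most plainly among the abundant members. Its transcript i7 held 99.99% of the gene's count in salt 1 and 93.2%, 92.5% and 94.7% in reference 3, salt 2 and salt 3. In reference 1 and reference 2 the same transcript held 6.52% and 1.82%, and transcripts i2 and i8 held most of the rest. DN194_c1_g1 (ENSDARP00000112866), which has 2 transcripts, was all i3 in reference 1 and salt 1 and all i1 in reference 3 and salt 2. In reference 2 and salt 3 its transcript i1 held 54.9% and 40.9%. DN7737_c1_g1 (ENSDARP00000107036) consisted of transcript i30 alone in salt 1. That transcript held 55.0% in salt 3 and had 0 counts in the other 4 brains. DN648_c3_g1 tied with these at a shift of 100 percentage points. In DN194_c1_g1 and DN7737_c1_g1 fish of the same station differed from each other at both stations. In DN2344_c0_g1 the reference fish differed, while i7 held at least 92.5% in every salt brain.

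**Figure D5:**
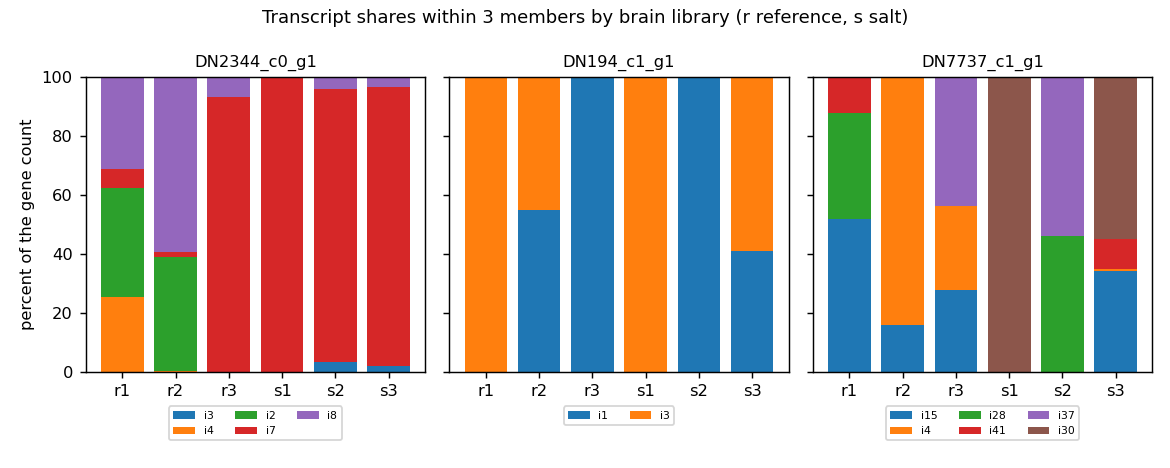
Stacked transcript shares within a gene (percent of its count) in the 6 brain libraries (r1 to r3 reference, s1 to s3 salt) for DN2344_c0_g1, DN194_c1_g1 and DN7737_c1_g1. Colours mark transcripts by their assembler number. Bars differ between fish of the same station, except that i7 leads in every salt brain of DN2344_c0_g1.

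Of the 968 transcripts, 913 passed the filter in a fit of 57387 brain transcripts. edgeR called 0 of them, against 0% of all transcripts. At an unadjusted p under 0.05 there were 53 (5.81%) against 3.63% of all. DESeq2 called 22, 7 higher and 15 lower (2.41% against 2.1%), in 21 members, of which 3 were also called as genes. Among the 22, 1 had 0 counts in all reference brains and 5 had 0 in all salt brains. The median absolute log2 fold change was 1.84 for these transcripts and 0.26 for their genes. The transcripts were picked by that call, so a large change is built into their median and not into that of their genes. Transcripts with 0 counts in a whole station have no finite fold change. The medians therefore do not compare transcripts with genes in general.

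In gills 151 of the 158 listed members passed the filter. edgeR called 0 of them, against 0% of 22958 genes, and DESeq2 called 0, also 0% of all genes. At an unadjusted p under 0.05 edgeR gave 2 members (1.32%) against 1.05% of all genes. Those had an edgeR adjusted p of 1.00 and were DN3749_c1_g1 (ENSDARP00000043854), at 4.25, 3.22 and 3.40 CPM in reference and 1.11, 1.12 and 1.1 CPM in libraries labelled salt, and DN4680_c0_g1 (ENSDARP00000113957), at 18.9, 13.2 and 12.8 CPM and 21.6, 37.7 and 23.8 CPM. Without the library labelled salt 3, edgeR called 0, with 8 members at that p (5.10%, against 3.22% of all genes). Without it and reference 1 together edgeR again called 0, with 2 (1.27%, against 3.15% of all genes). The median log2 fold change of the tested members was 0.27, against 0.03 for all gill genes. It was 0.01 without salt 2, where more members were highest than in any other library. It was 0.50 without the library labelled salt 3 and 0.43 without that library and reference 1. Values for gill genes as low as the members were not computed, and the listing limit held in gills too.

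DN2750_c0_g1 (ENSDARP00000074706) varied most in gills among the 21 members with a gill mean of at least 10 CPM, and is named after its values were seen. It stood at 0.625, 32.4 and 2.40 CPM in reference libraries and 40.4, 63.6 and 0.811 CPM in libraries labelled salt 1, 2 and 3. In brain it kept within 1089 to 1815 CPM. Reference 1 and the library labelled salt 3, whose transcript shares follow the same brain, were both low. So was reference 3, which carries another fish code.

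In liver 56 of the 61 listed members passed the filter. edgeR called 0 of them, against 0% of 14343 genes, with 7 (12.5%) at an unadjusted p under 0.05 against 6.39% of all genes. Of these 7, 6 were lower at the salt station. DESeq2 called 3 (5.36%) against 1.44% of all genes. The median log2 fold change was -0.53 for members and -0.09 for all liver genes with TMM scaling, and -1.32 and -0.98 without scaling factors. The listed members had low liver levels, with a median of 1.73 CPM. A listing limit of 1 CPM in at least 2 of 6 libraries favours genes high at 1 station. The shares and median changes above are therefore description only. Values for liver genes as low as the members were not computed.

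DN937_c1_g1 (ENSDARP00000121543) had 33, 58 and 36 counts in reference livers and 0 in every salt liver. Against a bound of 3 counts per library it was at least 7.23-fold lower at the salt station on TMM-scaled sizes, and at least 13.1-fold lower on library totals. DN20893_c0_g1 (ENSDARP00000033497) stood at 1.2, 1.15 and 3.87 CPM in reference and 0.0752, 0.135 and 0.103 CPM in salt livers. DN4179_c16_g1 (ENSDARP00000111313) went the other way, from 0.835, 0.696 and 1.03 CPM to 4.31, 1.58 and 1.51 CPM. Their DESeq2 adjusted p was 0.00371, 0.0228 and 0.0249, and their edgeR adjusted p 0.707, 0.709 and 0.736. A transcript was listed in liver only where at least 2 of 6 libraries reached 1 CPM. DN937_c1_g1 and DN20893_c0_g1 were under 1 CPM in every salt liver, so they were listed through the reference livers alone. DN4179_c16_g1 reached 1 CPM in every salt liver but only in reference 3 among reference livers. Such a limit favours genes high at 1 station, so these p-values are description only. DESeq2 called each of these genes in 3 of the 6 fits that left out a library, and called 0 members without reference 3, against 1.49% of all genes. Without reference 1 it called 6 (10%), and calls over all genes also rose, to 5.55%. With reference 1 left out, the salt livers all held much of ENSDARP00000050237 and the reference livers almost none, so station and that hit cannot be told apart there.

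Main accessions were largely distinct. The 200 members carried 198 different main accessions, with 2 accessions shared by 2 members each, ENSDARP00000073752 and ENSDARP00000079762. In 56 members the transcripts listed several different first hits. A main accession need not stand for all of a member's count. Summed over the brain, the main hits of DN372_c0_g1 and DN5567_c1_g1 had means of 6.16 and 3.18 CPM, although no member had a brain mean under 105 CPM. For 38 members another assembled gene also listed the main accession first. When counts were summed per first hit, the hit kept at least 20 times its higher level outside brain for 189 members and did not for 11. For members whose main accession no other gene listed first, that sum holds all or part of the member's own transcripts. The rule had already chosen those members at 20 times, so the 189 are no independent support for the enrichment. DN1741_c0_g1 (ENSDARP00000015805) is the extreme: its hit stood at a mean of 769 CPM in brain, 706 CPM in gills and 142 CPM in liver, so the brain enrichment belongs to the assembled gene and not to all genes with that hit.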

How the data were processed

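RNA of brain, gills and liver was extracted with a column kit and made into TruSeq libraries, per the labels' protocols. The deposited tables hold raw counts per transcript of a de novo assembly, 1 table per tissue. Per the submitters' processing notes, the authors used Trimmomatic and DESeq2; for the aligner and counter, nothing is stated in the labels or headers. Columns were matched to samples by library code, and groups were taken from titles. Whether the replicates were handled separately after capture is not stated, so p-values measure the spread between these libraries.

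Counts were summed per assembled gene. Fits were made within a tissue with edgeR 4.0.16 under R 4.3.3 (filterByExpr, TMM, quasi-likelihood F test, two-sided, Benjamini-Hochberg over all genes or transcripts of the table); the SE is the log2 fold change divided by the square root of F. DESeq2 1.42.0 and limma 3.58.1 (voom) were alternatives. DESeq2 gives no adjusted p to some genes, and these count as not called. CPM use library totals. The fits were tested on simulated counts, but the outcome is not given here and is no support for any call. Tested alternatives were other scaling, no filter, leaving out libraries, a replicate block and other membership rules. The members and lists were chosen with earlier results of these data known. Named members are the 8 highest, those at the limits, the 2 smallest p per direction, the extremes of spread, gills, liver and transcript shares, and those called by DESeq2. Lists of brain cell markers by symbol could not be matched and were not tested.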

Additional observations from a re-analysis of the deposited data

Results flagged for a closer look

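For 3 members every salt library was on one side of every reference library in a tissue and on the other side in another, on library totals. The differences between tissues were not tested, and no adjusted p of edgeR passed in any of them. The share of all genes with such opposite sides was not computed, so this count does not set the members apart. In brain alone, 6.82% of all tested genes were higher without overlap at the salt station and 6.01% lower. DN20893_c0_g1 was higher in salt brains (log2 fold change 0.31) and lower in salt livers (-3.30), and stayed without overlap with TMM scaling. DN67963_c0_g1 had 0.21 in brain and -1.15 in liver, where TMM-scaled values overlapped. For DN4680_c0_g1 the value was 0.13 (brain), 0.82 (gills) and -1.29 (liver). With TMM scaling its brain and liver values overlapped. Its gill values include the library labelled salt 3, whose transcript shares follow brain reference 1. The liver levels of these genes were at most 5.96 TMM-scaled CPM.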

How the results depend on the processing

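edgeR called 0 members in brain, gills and liver under both other scalings, without a filter, with the replicate block and without each library in turn, and limma-voom called 0 in each tissue. For their brain transcripts edgeR called 0 without a filter, with the block and without each library; other scalings were not run there. DESeq2 called 5 members in brain, 22 of their transcripts, 3 members in liver and 0 in gills. Without each library in turn, the DESeq2 counts ran from 3 (reference 1, reference 3, salt 3) to 22 (reference 2) in brain and from 0 (reference 3) to 6 (reference 1) in liver. At an unadjusted p under 0.05, edgeR gave from 9 brain members (4.5%, against 4.12% of all genes) without reference 3 to 42 (21%, against 9.85%) without reference 2, beside 21 with all libraries. With the replicate block it gave 21 brain members (10.5%, against 5.21% of all genes). For transcripts the block gave 35 (3.83%, against 2.06% of all) in place of 53. Shares among genes or transcripts as abundant as the members were not computed in these alternative fits. Same-numbered libraries of the 2 stations carry different fish codes. Their deviations from the station means gave r from -0.324 to 0.164 within a tissue, which cannot exclude a shared handling. In liver, dropping the scaling factors gave 18 members at that p (32.1%) in place of 7, and 28.9% of all liver genes passed as well. The 6 brain and 3 liver members whose change is given kept their direction under all 12 alternatives of each. The stations did not overlap in any of these members, so leaving out a library could not have reversed the direction. Membership moved most with the rule: 124 of the 200 remained at a 50-fold threshold, 148 at 10-fold and 107 where a transmembrane tag was allowed. It kept 179 with reference and 185 with salt libraries only, 191 to 197 without a fish code, 163 by protein hit and 187 where every transcript with a hit had to list DANRE first, chosen after seeing the data like the DESeq2 fits without a library. Levels under 1 CPM in gills and liver rest on few counts.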
